A study of Mus musculus with 16 samples.

Results

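GABA-B receptors, their auxiliary KCTD subunits and the GIRK potassium channels they open were followed across 4 genotype groups of mouse hippocampus. The set was defined by 7 genes, Gabbr1, Gabbr2, Kctd12, Kctd16, Kcnj3, Kcnj6 and Kcnj9. Its members are all probe sets that the platform annotation pairs with 1 of these symbols alone, which gave 18 of the 45101 probe sets on the array. Gabbr1 had 4 such probe sets, Kctd16 had 1, Kcnj3 had 4, Kcnj6 had 5 and Kcnj9 had 4. For Gabbr2 and Kctd12 the annotation table used held no probe set with the symbol alone, so both are not analysed here.

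RNA came from the hippocampus of male mice aged 2 months, with the strain given as C56/BL6, and was hybridised to 16 Affymetrix arrays, 4 per group. N-dCKO is the neuronal double-conditional knockout of APP and APLP2, whose genotype label reads APP-/-; APLP2-/-. APPKO is APP-/-, APLP2KO is APLP2-/- and WT is wild type. The labels name neither the driver of the conditional deletion nor which neurons or other cells carry it. Whether the 4 arrays of a group stand for 4 mice is not stated either, so each p-value reflects array-to-array spread that could be technical.

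The GABA-B receptor is a dimer of 2 G protein-coupled subunits. GABBR1 binds GABA, and GABBR2 carries GABBR1 to the cell surface and couples to inhibitory G proteins. KCTD12 and KCTD16 bind GABBR2 and shape the time course of the response. The freed beta-gamma subunits of the G protein open GIRK channels on dendrites, which hyperpolarises the neuron, and close calcium channels in axon terminals, which lowers transmitter release. GIRK1 (Kcnj3), GIRK2 (Kcnj6) and GIRK3 (Kcnj9) are the main GIRK subunits of the hippocampus. The GABBR1a isoform, with its extracellular sushi domains, is a reported receptor of secreted APP, and the comparison asks whether the transcripts of this receptor system differ where APP, APLP2 or both are missing.

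App and Aplp2 followed the labels. The brightest App probe set read 2191 ± 195 in N-dCKO, 2511 ± 180 in APPKO, 19654 ± 1410 in APLP2KO and 18499 ± 1100 in WT (SD, n = 4). Aplp2 read 999 ± 122 in N-dCKO, 5778 ± 277 in APPKO, 1162 ± 276 in APLP2KO and 5984 ± 229 in WT. Neuronal markers were bright on every array, with mean log2 signals of 13.42 to 13.61 in N-dCKO, 13.46 to 13.65 in APPKO, 13.48 to 13.66 in APLP2KO and 13.38 to 13.56 in WT. Choroid plexus markers stood apart: all 8 were called lower in N-dCKO than in WT, and their mean log2 signal was 5.20, 5.82, 8.78 and 5.91 on N-dCKO arrays 1 to 4, against 9.14 to 10.2 in WT. Microglial markers lay at 10.12 to 10.26 in N-dCKO against 10.46 to 10.53 in WT, with 3 of 6 called lower. They lay below WT in the single knockouts too, at 10.18 to 10.39 in APPKO and 10.30 to 10.40 in APLP2KO, with 0 called. Further lists also did not overlap between N-dCKO and WT, with 0 of their markers called: oligodendrocytes at 12.20 to 12.54 in N-dCKO against 12.73 to 13.07 in WT, ependyma at 7.01 to 7.50 in N-dCKO against 7.85 to 7.99 in WT, and astrocytes at 12.80 to 12.86 in N-dCKO against 12.64 to 12.77 in WT. Astrocyte markers in APPKO, at 12.79 to 12.86, and ependymal markers in APLP2KO, at 7.27 to 7.66, did not overlap WT either. The median log2 fold change of the oligodendrocyte markers was -0.50 in N-dCKO and -0.52 in APPKO against WT. That of the dentate granule neuron markers, at 9.16 to 9.35 in N-dCKO and 9.34 to 9.54 in WT, was -0.29 in N-dCKO against WT.

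Of the 18 member probe sets, 8 passed the filter on dim signals, 3 of Gabbr1, 3 of Kcnj3 and 2 of Kcnj9. None of these 8 was called in any of the 8 comparisons (limma, adjusted p below 0.05 over all 22519 tested probe sets), and the smallest adjusted p among the 64 tests was 0.435. The share of all tested probe sets called was itself small: 0.666% in N-dCKO against WT, 0.0133% in APPKO against WT, 0.147% in APLP2KO against WT, 0.262% in N-dCKO against APPKO and 0.0266% in N-dCKO against APLP2KO. It was 0.0222% for APP loss and 0.711% for APLP2 loss, each with 8 arrays against 8, and 0% for the interaction of both losses. For APPKO and WT, whose same-numbered arrays deviated together, a fit with the replicate number as a block called 6 probe sets rather than 3, and 0 members. The smallest member adjusted p in that limma fit was 0.912. Other APPKO against WT values given here come from the fit without this block. The interaction called 0 of all probe sets, while 4.14% had an unadjusted p below 0.05. A test for any difference among the 4 groups called 0 members and 0.435% of all probe sets, with member adjusted p of 0.769 to 0.970.

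No difference between genotypes was called for Gabbr1 in its 3 tested probe sets. The brightest, 1455021_at, read 8633, 8712, 9513 and 8016 on the N-dCKO arrays and 9119, 8388, 8969 and 9087 on the APPKO arrays. APLP2KO arrays gave 8191, 8403, 9721 and 8833, against 8035, 7782, 9041 and 9315 on the WT arrays. All 4 groups overlapped. By group mean the order was APPKO (8891 ± 341), APLP2KO (8787 ± 678), N-dCKO (8718 ± 614) and WT (8543 ± 749, SD, n = 4), and no neighbours in this order differed by more than their SD.

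The log2 fold change of 1455021_at was 0.03 ± 0.07 in N-dCKO against WT (SE, limma adjusted p = 0.914), 0.06 ± 0.07 in APPKO against WT (1) and 0.04 ± 0.07 in APLP2KO against WT (0.935). Converted to percent, the 95% interval of APPKO against WT ran from -5.43% to 15%, and that of N-dCKO against WT from -7.38% to 12.7%. APP loss with 8 arrays against 8 gave narrower bounds for this probe set, 1.75% with an interval of -5.06% to 9.04%. Each interval gives the changes compatible with the data for 1 probe set in 1 comparison, without adjustment over all tested probe sets. It is not a limit of detection, and larger changes could also go uncalled with this number of arrays.

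The second Gabbr1 probe set, 1437188_at, read 2975, 3700, 3042 and 3357 in N-dCKO, 3401, 3231, 3056 and 3225 in APPKO, 3281, 3188, 3306 and 3202 in APLP2KO and 3155, 3207, 3260 and 3005 in WT. N-dCKO held both the highest and the lowest of the 16 values. The third, 1422051_a_at, ranged from 1120 to 1247 in N-dCKO, from 1018 to 1243 in APPKO, from 1077 to 1217 in APLP2KO and from 1029 to 1213 in WT. Over the 7 comparisons of group means and the 3 probe sets, the log2 differences of Gabbr1 lay between -0.03 and 0.07, and no 95% interval reached beyond -11.2% or 16.7%. The labels and the annotation do not say which part of the transcript each probe set matches, so the 1a and 1b isoforms cannot be told apart.

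**Figure D1:**
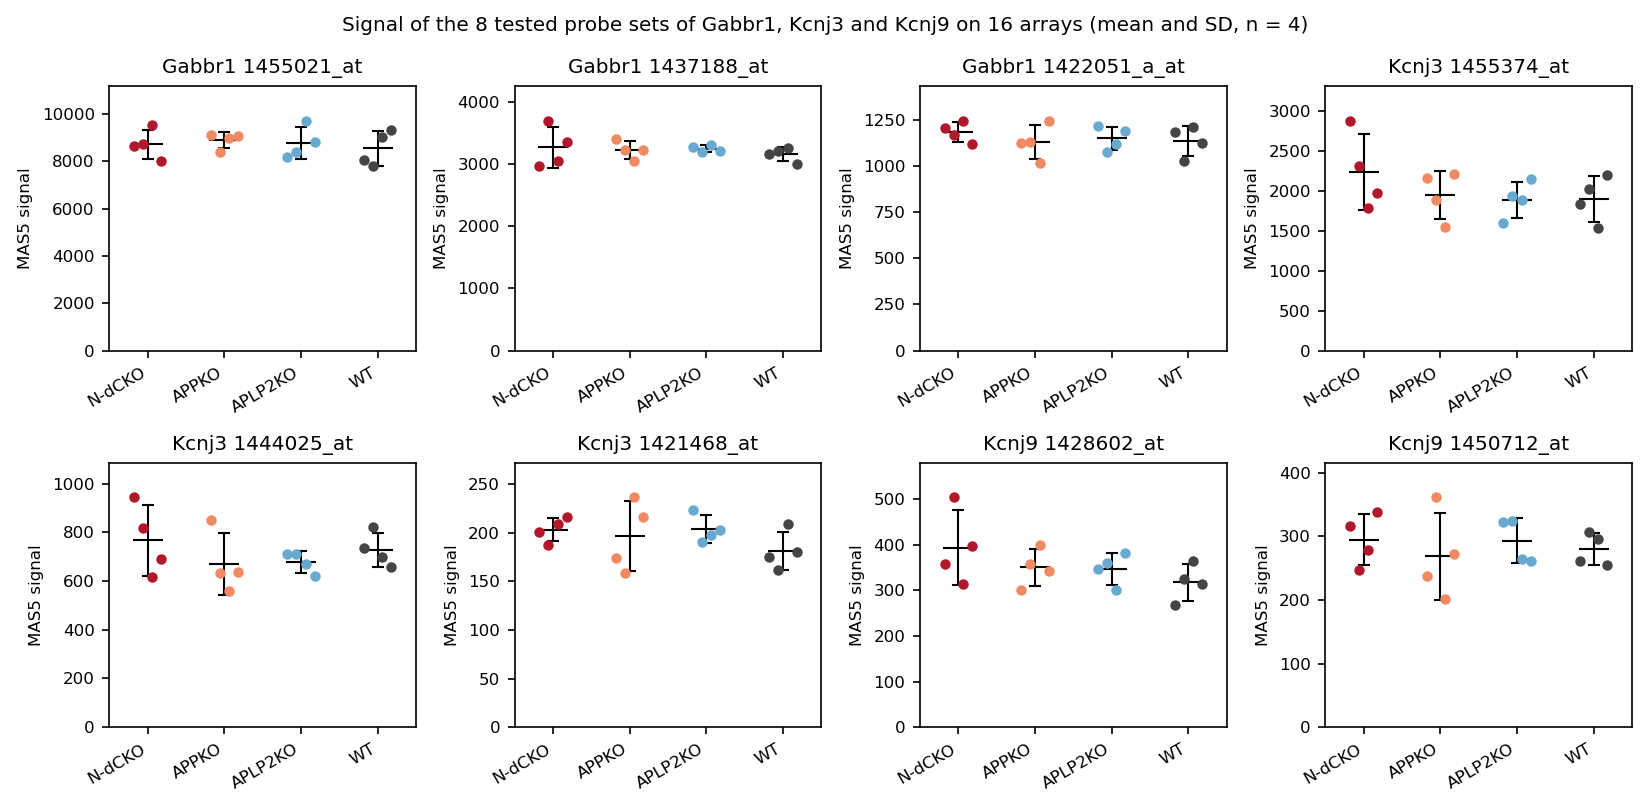
MAS5 signal (linear, from 0) of the 8 tested probe sets on each array, with 4 arrays per group as points and the group mean and SD as bars. The groups overlap in every panel. For Gabbr1 1455021_at all 16 arrays lie between 7782 and 9721, and Kcnj9 1428602_at spans 313 to 505 in N-dCKO against 268 to 365 in WT.

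Kcnj3 encodes GIRK1, the subunit that partners with GIRK2 or GIRK3 in most neuronal channels. Its brightest probe set, 1455374_at, read 2886, 2310, 1793 and 1974 in N-dCKO and 2159, 1884, 1555 and 2215 in APPKO. In APLP2KO it read 1603, 1934, 1885 and 2148, against 1837, 2025, 1542 and 2207 in WT. N-dCKO array 1 gave the highest value of all 16, and the remaining N-dCKO arrays lay at 1793 to 2310, against the WT range of 1542 to 2207. The log2 fold change was 0.22 ± 0.14 in N-dCKO against WT (SE, limma adjusted p = 0.588), 0.04 ± 0.14 in APPKO against WT (1) and 0.00 ± 0.14 in APLP2KO against WT (0.997). The interval for N-dCKO against WT ran from -4.62% to 43.0%, which includes 0. Single arrays moved this value: it was 0.09 without N-dCKO array 1 (adjusted p = 0.879) and 0.13 without WT array 3. Without N-dCKO array 3 it was 0.32 (limma unadjusted p = 0.035, adjusted 0.473).

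Another Kcnj3 probe set, 1444025_at, read 945, 817, 615 and 689 in N-dCKO, 852, 632, 558 and 637 in APPKO, 712, 711, 668 and 620 in APLP2KO and 736, 822, 700 and 656 in WT. N-dCKO array 1 was again the highest of the 16. Its log2 fold change was 0.06 ± 0.13 in N-dCKO against WT, -0.13 ± 0.13 in APPKO against WT and -0.10 ± 0.13 in APLP2KO against WT (SE, limma adjusted p = 0.912, 1 and 0.914). The APPKO value was -0.25 without APPKO array 1 (unadjusted p = 0.0494, adjusted 1), -0.05 without APPKO array 3 and -0.07 without WT array 2, and the APLP2KO value was -0.06 without APLP2KO array 4 and -0.04 without WT array 2. The interaction of both losses was 0.29 ± 0.18 for this probe set (adjusted p = 0.999). The third tested probe set, 1421468_at, averaged 203 ± 11.9 in N-dCKO, 197 ± 36.1 in APPKO, 204 ± 14.4 in APLP2KO and 181 ± 19.9 in WT (SD, n = 4). Its log2 fold changes of 0.16, 0.10 and 0.17 in N-dCKO, APPKO and APLP2KO against WT each had an SE of 0.13 (limma adjusted p = 0.695, 1 and 0.845).

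Kcnj9 encodes GIRK3, which forms channels with GIRK1 or GIRK2 and carries a sorting signal that affects how many channels reach the membrane. Probe set 1428602_at read 357, 505, 313 and 398 in N-dCKO, 302, 359, 399 and 343 in APPKO and 348, 361, 300 and 382 in APLP2KO, against 268, 325, 365 and 313 in WT. N-dCKO array 2 was the highest of the 16 and WT array 1 the lowest, and N-dCKO array 3 lay at the level of WT array 4. The log2 fold change of 0.29 ± 0.13 in N-dCKO against WT was the one value among the 64 with an unadjusted p below 0.05 (0.0472, limma adjusted p = 0.435), where 11.2% of all tested probe sets had such a p in this comparison. In the other comparisons, where 0 members had one, the share was 4.9% in APPKO against WT, 7.1% in APLP2KO against WT, 7.48% in N-dCKO against APPKO, 7.5% in N-dCKO against APLP2KO, 8.28% for APP loss, 9.87% for APLP2 loss and 9.13% for any difference among the 4 groups. Without N-dCKO array 2 it was 0.16 (adjusted p = 0.751), and without N-dCKO array 3 it was 0.39 (0.295).

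The second tested Kcnj9 probe set did not follow the first. For 1450712_at the values were 316, 247, 279 and 338 in N-dCKO, 238, 362, 201 and 273 in APPKO, 323, 324, 265 and 261 in APLP2KO and 262, 307, 296 and 255 in WT. Its log2 fold change in N-dCKO against WT was 0.07 ± 0.15 (SE, limma adjusted p = 0.914), with an interval of -15.7% to 30.4%. The correlation of both Kcnj9 probe sets over the 16 arrays was 0.00.

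**Figure D2:**
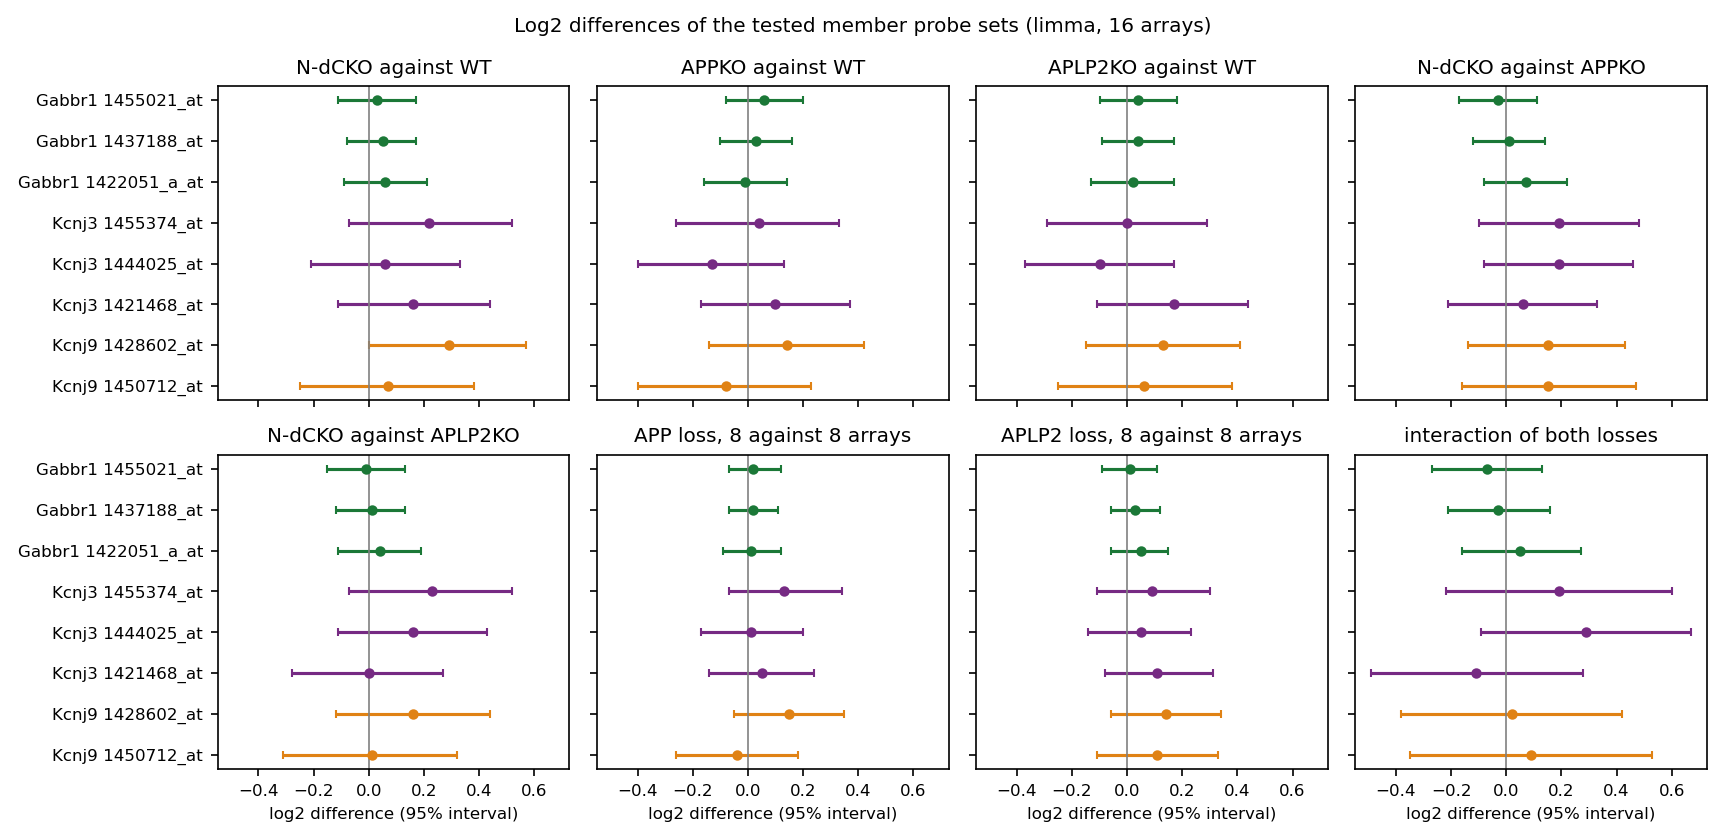
Log2 difference (x axis) of the 8 tested probe sets in each of the 8 comparisons, with points for the estimate and bars for the 95% interval. Gabbr1 intervals are the narrowest, and Kcnj9 1428602_at in N-dCKO against WT, at 0.29 with bounds of 0.00 and 0.57, is the value farthest from 0 relative to its error.

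All 8 tested probe sets had positive estimates, none called, in N-dCKO against WT (0.03 to 0.29), with 5 of 8 in APPKO against WT (-0.13 to 0.14) and 6 of 8 in APLP2KO against WT (-0.10 to 0.17). These comparisons share the WT arrays. The first count depended on the scaling: with each array centred on its median it was 3 of 8, with a range of -0.06 to 0.20, and the median of all tested probe sets then moved by -0.088. That median was then -0.081, below the lowest member. With quantile normalization 8 of 9 tested members were positive (-0.02 to 0.28). The 8 probe sets stand for only 3 genes, and the share of all tested probe sets with positive estimates is not given here. In none of the 7 comparisons of group means did the groups separate without overlap for a tested member. Groups did not overlap for 6.77% of all tested probe sets in N-dCKO against WT, 2.59% in APPKO against WT, 4.14% in APLP2KO against WT, 3.81% in N-dCKO against APPKO, 4.81% in N-dCKO against APLP2KO, 0.0577% for APP loss and 0.266% for APLP2 loss.

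The remaining 10 member probe sets lay under the filter, set at a mean log2 signal of 6.60, or a signal of 87.9. The nearest below it was Kcnj3 1444336_at at a mean log2 of 6.60, which ranged from 60.8 to 149 over the 16 arrays, and the nearest above it was Kcnj3 1421468_at at 7.67. All 5 Kcnj6 probe sets, for GIRK2, were dim, with mean signals of 27.2 to 69.4. The brightest, 1425044_at, read 61.7, 45.2, 76.7 and 51.8 in N-dCKO, between 70.0 and 111 in APPKO, 88.6, 35.3, 60.5 and 85.9 in APLP2KO and 44.9, 60.2, 69.1 and 75.5 in WT. APPKO overlapped WT only in the narrow span from 70.0 to 75.5.

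Kctd16, represented by 1429666_at alone, averaged 83.6 ± 13.2 in N-dCKO, 76.9 ± 25.3 in APPKO, 76.4 ± 18.2 in APLP2KO and 73.5 ± 19.3 in WT (SD, n = 4), and all groups overlapped. The dim Gabbr1 probe set 1425595_at read 21.9, 40.1, 32.8 and 54.2 in N-dCKO, 2.01, 8.71, 17.8 and 13.7 in APPKO, 53.7, 46.2, 1.62 and 34.0 in APLP2KO and 1.58, 2.49, 36.2 and 23.0 in WT. N-dCKO and APPKO did not overlap here, as for 3.46% of all 45037 probe sets without the filter. This was the one separation among the 10 dim members in the 7 comparisons of group means, at signals far below those of the other Gabbr1 probe sets, none of which separated these groups. Fitted without the filter over 45037 probe sets, none of the 80 values of the 10 dim members was called. The smallest adjusted p was 0.441, and 4 values had an unadjusted p below 0.05. Most of these came from Gabbr1 1425595_at. Its log2 difference was 1.03 for APLP2 loss (limma unadjusted p = 0.0134), 1.27 in N-dCKO against APPKO (0.0282) and 1.13 in N-dCKO against WT (0.0484). The other was Kcnj6 1425707_a_at for APLP2 loss, at 0.72 (0.038). The share of all 45037 probe sets with such a p is not given here. Standard errors of the log2 differences of the 10 dim members between 2 groups were 0.25 to 0.54. The dim probe sets thus give no useful bound for Kcnj6 and Kctd16.

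**Figure D3:**
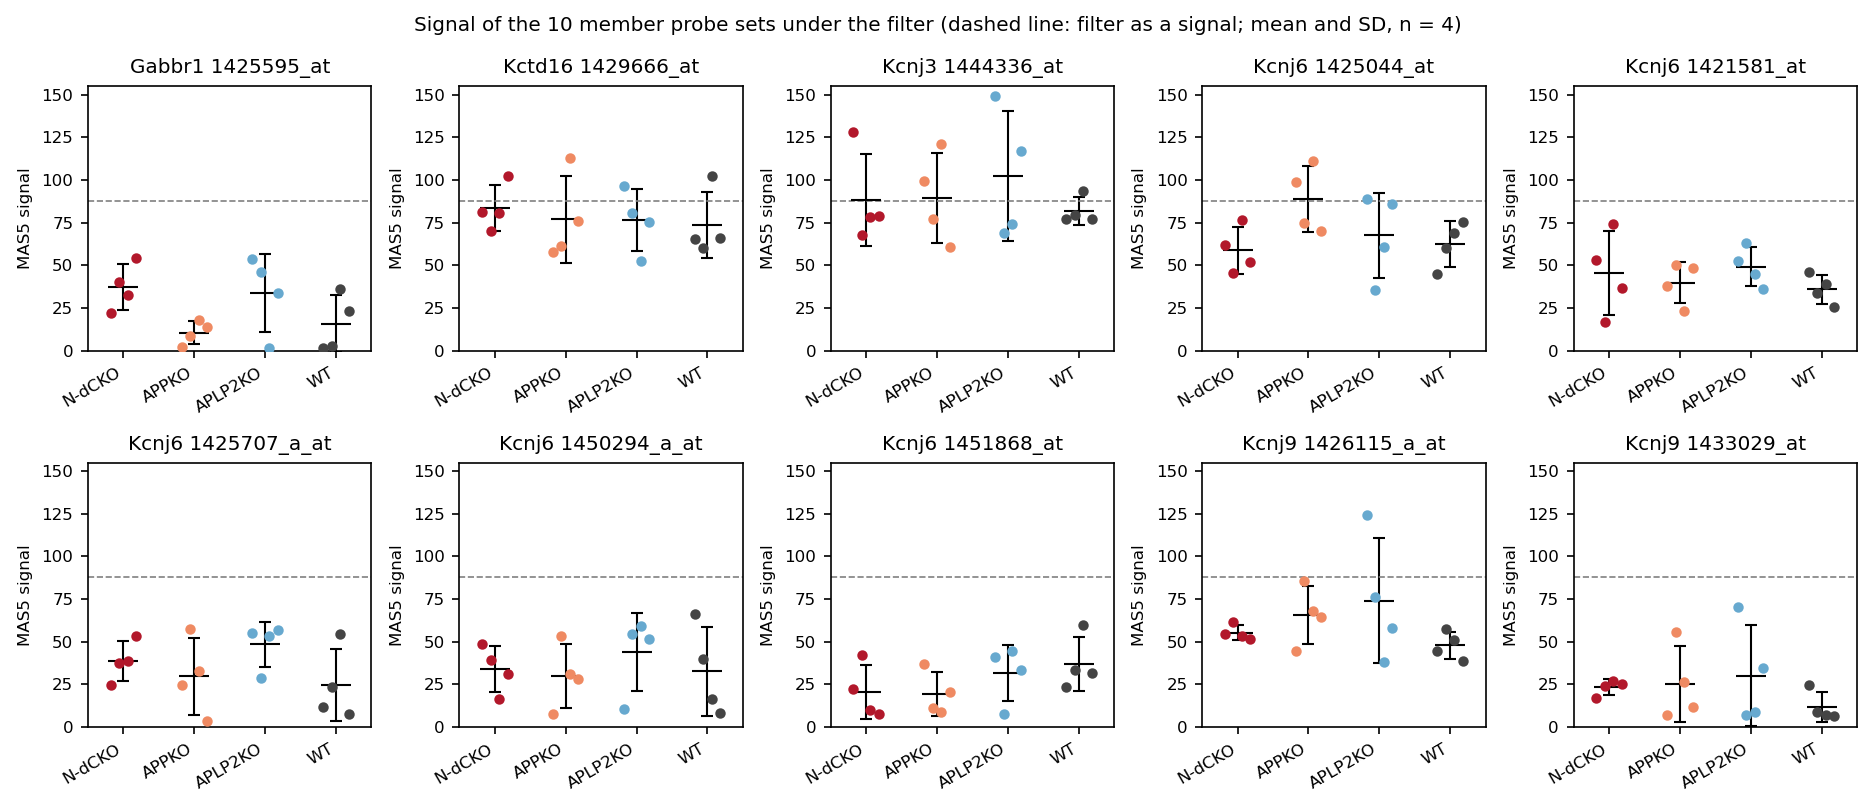
MAS5 signal of the 10 member probe sets under the filter, on one scale from 0, with arrays as points, group mean and SD as bars and the filter of 87.9 as a dashed line. The 5 Kcnj6 panels lie mostly below the line, and in several panels the arrays of 1 group differ by several fold.

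Probe sets of one gene often did not move together from array to array. Among the 3 Gabbr1 probe sets the correlations of log2 signal over 16 arrays were -0.13, 0.25 and 0.01. For Kcnj3, 1455374_at and 1444025_at correlated at 0.59, and both correlated negatively with 1421468_at (-0.31 and -0.40). Between genes the values ran from -0.51, for Gabbr1 1455021_at with Kcnj9 1450712_at, to 0.47, for Gabbr1 1437188_at with Kcnj9 1428602_at. These points share the scaling of each array, and the correlations are descriptions.

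Among 11667 other tested genes, each by its brightest probe set, the pattern over 16 arrays most like that of Gabbr1 1455021_at was that of Sptan1, a spectrin of the membrane skeleton (r = 0.86), and of Tcf4, a basic helix-loop-helix transcription factor (0.85). Kcnj3 1455374_at was most like Fam131b (0.90) and Sf3b2, a splicing factor subunit (0.89), and Kcnj9 1428602_at most like Pgp, a phosphatase of phosphoglycolate (0.81), and Soga1 (0.76). For the dim members the closest were Cpsf1 (0.85) and Slc27a4 (0.79) with Kctd16, and Ids (0.77) and Cpe (0.76) with Kcnj6. Each of these genes was picked as the closest of all tested genes over only 16 arrays. High values can arise by chance in such a search, and no p was computed.

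Of a further 57 genes of GABA-B signalling, 53 had a tested probe set, and App was the only one called in any of the 8 comparisons. The other 52 comprised Kctd8 and Kctd12b, receptor partners, G protein subunits, RGS proteins that shorten G protein signals, adenylyl cyclases and calcium channels, kinases and a phosphatase, and genes of GABA synthesis, uptake and breakdown. Their median log2 fold change was 0.05 in N-dCKO against WT, 0.03 in APPKO against WT and 0.04 in APLP2KO against WT, against 0.007, 0.001 and 0.001 over all tested probe sets. With each array centred on its median the list medians were -0.04, -0.06 and -0.04, against -0.081, -0.092 and -0.077 over all tested probe sets. The sign of the list medians thus depended on the scaling, while they lay above the median of all tested probe sets both ways. With quantile normalization the list medians were 0.06, 0.02 and 0.03.

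The auxiliary subunit gene Kctd8 had log2 fold changes of 0.22 in N-dCKO, 0.04 in APPKO and 0.15 in APLP2KO against WT, none called, with signals of 318, 371, 327 and 274 in N-dCKO against 326, 249, 281 and 249 in WT. The other, Kctd12b, was at -0.13, -0.02 and 0.14 in the same comparisons, none called. Its signals were 168, 158, 172 and 158 in N-dCKO against 147, 196, 199 and 184 in WT. In N-dCKO against APLP2KO it was at -0.27 (limma unadjusted p = 0.0454, adjusted 0.649). The brightest probe set of Kcnj5, for GIRK4, was dim at 4.93 to 56.4. The 3 genes with the smallest unadjusted p were Slc32a1, Cacna1b and Adcy8, and none was called.

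Slc32a1 encodes the vesicular GABA transporter of inhibitory terminals. It read 1745, 1656, 1453 and 1657 in N-dCKO, 1592, 1367, 1285 and 1332 in APPKO, 1218, 1403, 1427 and 1302 in APLP2KO and 1558, 1438, 1504 and 1626 in WT. Both single knockouts had lower means than WT while N-dCKO did not, with an interaction of 0.42 ± 0.11 (SE, unadjusted p = 0.00103, limma adjusted p = 0.999). Adcy8, a calcium-stimulated adenylyl cyclase, read 514, 432, 384 and 306 in N-dCKO against 311, 248, 286 and 304 in WT, a log2 fold change of 0.48 ± 0.16 (unadjusted p = 0.008, adjusted 0.224). Cacna1b, the N-type calcium channel that GABA-B receptors inhibit in terminals, read 1633, 1402, 1518 and 1428 in N-dCKO against 1336, 996, 1308 and 1312 in WT (0.28 ± 0.09, unadjusted p = 0.0074, adjusted 0.218). For Adcy8 and Cacna1b the N-dCKO arrays lay above the WT arrays, apart from the near-equal Adcy8 values of 306 and 311. Both were picked for a small p in this comparison, among 52 genes in 8 comparisons, so the separation adds no support. In N-dCKO against WT, 6.77% of all tested probe sets did not overlap and 11.2% had an unadjusted limma p below 0.05.

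**Figure D4:**
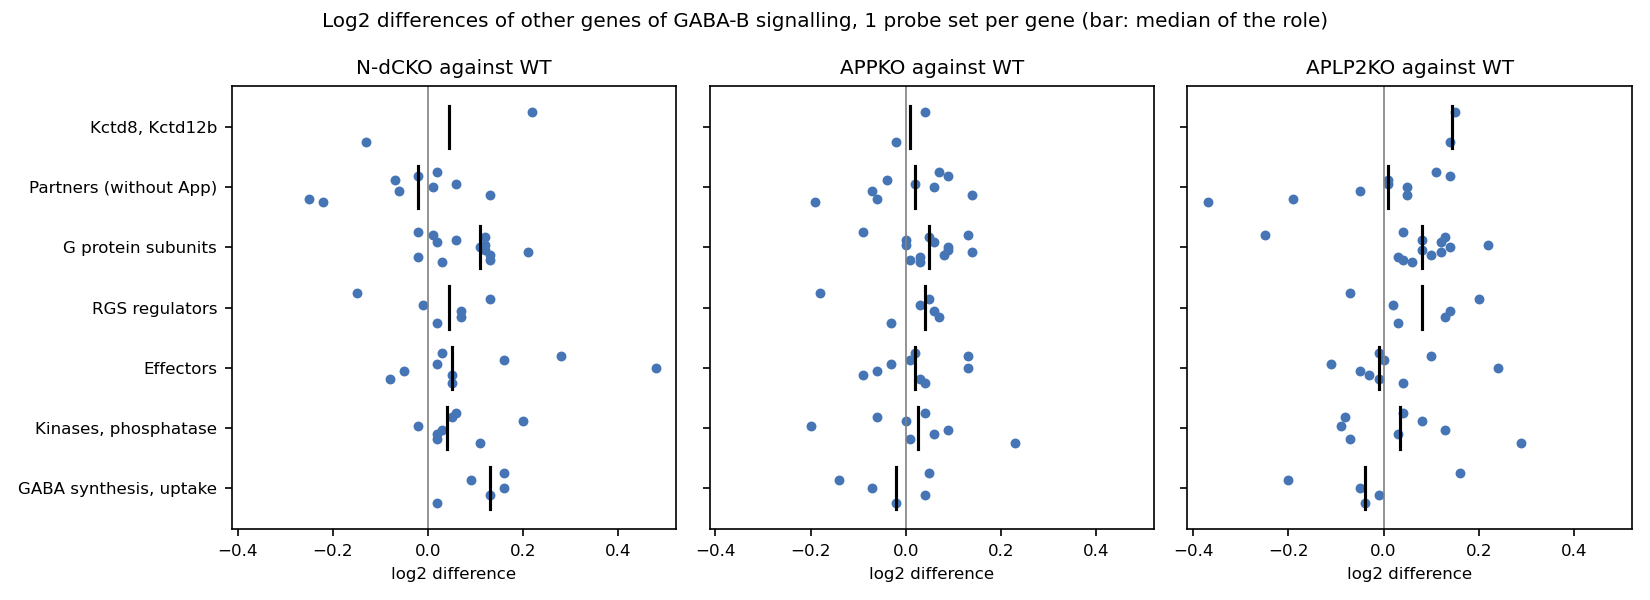
Log2 differences (x axis) of 52 other genes of GABA-B signalling, grouped by role, in each knockout group against WT, with a point per gene and a bar for the median of the role. Of the 156 points, 144 lie within 0.2 of 0, and Adcy8 at 0.48 in N-dCKO is the farthest.

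Markers of GABAergic interneurons, the cells that release GABA, lay higher as a list in N-dCKO. Their mean log2 signal was 11.58 to 11.62 in N-dCKO, 11.47 to 11.51 in APPKO, 11.40 to 11.53 in APLP2KO and 11.45 to 11.51 in WT. All 8 had positive log2 fold changes in N-dCKO against WT with a median of 0.14, and 0 were called. With median centring 5 of 8 were positive, with a median of 0.05, while the median of all tested probe sets was -0.081. With quantile normalization 8 of 8 interneuron markers were positive, with a median of 0.15. Gad1, Gad2 and Slc32a1 stand on this list and on the list of GABA-B signalling. Other neuron lists had medians of like size in N-dCKO against WT, 0.15 for pyramidal neurons (1 of 4 negative) and 0.10 for excitatory neurons (0 of 3 negative), with 0 called. The part of the interneuron, pyramidal and excitatory neuron markers in the Kcnj9 and Kcnj3 values of N-dCKO was not tested. Nor was that of the choroid plexus, microglial, oligodendrocyte, ependymal, dentate granule neuron and astrocyte markers given above. In bulk tissue a change in the number of cells of a type and in RNA per cell cannot be told apart.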

How the data were processed

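The deposited values are linear MAS5 intensity values, as the submitters' processing notes name the method without a version, and each array has a 2% trimmed mean of 500. They were kept as scaled and taken to log2(signal + 9), the pseudocount being 10% of the median of all values (91.7). Differences on this scale understate changes of dim probe sets. After removal of 64 control probe sets, those with a mean log2 at or above the median were tested (22519). limma 3.58.1 in R 4.3.3 fitted 1 mean per group over 16 arrays with an intensity trend in the variances (12 residual degrees of freedom, 19.0 in the moderated test), with two-sided tests and Benjamini-Hochberg adjustment over all tested probe sets. Probe sets rather than genes were fitted because the set is defined by probe sets. APP loss is the mean of APPKO and N-dCKO minus that of APLP2KO and WT, APLP2 loss likewise, and the interaction is (N-dCKO minus APLP2KO) minus (APPKO minus WT). The number of arrays limits the precision. Named genes are all members, App and Aplp2, called genes of the signalling list or else the 3 with the smallest p, and the 2 genes most correlated with each member. The auxiliary and channel subunit genes Kctd8, Kctd12b and Kcnj5 are named in addition. Members and lists were chosen with earlier results of these data known. Deviations from the group means of same-numbered arrays correlated at over 0.1 in all 4 pairs of APPKO and WT (0.18 to 0.30). The labels do not say what a number marks. The main fit had no pairing term, so every APPKO against WT difference, error and p given without the block is unpaired. The replicate block was run only as an alternative, with 1 effect per number shared by all 4 groups. In the other 5 pairs of groups at most 1 of 4 correlations exceeded 0.1 (-0.08 to 0.24), and the numbers were not taken as pairing. The model was also run on simulated data with independent noise and no shared replicate effect. The outcome is not given here, and no result rests on it.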

Additional observations from a re-analysis of the deposited data

Results flagged for a closer look

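Of 72 sets of 4 arrays (18 probe sets in 4 groups), 5 held an array far from the others by Dixon's criterion for 4 values, which chance gives in about 1 in 20. All 5 were in probe sets under the filter. WT array 3 was high for Kctd16 1429666_at, at 102 against 60.3 to 65.9 (gap over range 0.868), and for Kcnj3 1444336_at, at 93.6 against 77.0 to 79.3 (0.863). APLP2KO array 2 was low for Kcnj6 1425707_a_at, at 28.6 against 53.3 to 56.8 (0.874), and APLP2KO array 1 was low for Kcnj6 1450294_a_at, at 10.4 against 51.5 to 59.5 (0.837). WT array 1 was high for Kcnj9 1433029_at, at 24.7 against 6.30 to 9.04 (0.851).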

How the results depend on the processing

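The number of members called was 0 under every alternative run, 20 for each comparison of 2 groups and 27 for each of the others. These were median centring, quantile normalization, a pseudocount of 36 or 1, no filter, a filter at the 75th percentile, 1 probe set or the mean of all probe sets per gene, no variance trend, array weights, the replicate block, only the groups compared (comparisons of 2 groups), and each array of the groups compared left out. The smallest adjusted p of a tested member was 0.270, for Kcnj9 1428602_at in N-dCKO against WT with array weights. With the replicate number as a block the count was 0 in each comparison and that value had an adjusted p of 0.366. The block moved the count over all probe sets from 5 to 88 for APP loss and from 150 to 263 in N-dCKO against WT. Among the arrays of other groups, 13 of 16 arrays correlated best with one of their own number, a hint from the data and not the design. The main fit left out any such shared effect, and what the numbers mark was not tested. Of 24 member differences with a size above 0.1, 22 moved by over 1.5 times when some single array was left out. Of 1344 member log2 differences under these alternatives, 25 moved by over 1 SE and 100 changed sign, 1 of them from a size above 0.1. With the mean over all probe sets, dim ones included, Gabbr1 was at 0.32 in N-dCKO against WT (adjusted p = 0.400), against 0.03 for its brightest probe set. It was at 0.28 for APLP2 loss (limma unadjusted p = 0.00862, adjusted 0.293) and 0.33 in N-dCKO against APPKO (0.0228, adjusted 0.583), but -0.02 in APPKO against WT. This mean includes the dim 1425595_at, which was at 1.03 for APLP2 loss, against 0.01 for the brightest probe set.

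Counts over all tested probe sets moved more: 150 in N-dCKO against WT (62 to 263), 3 in APPKO against WT (1 to 21), 33 in APLP2KO against WT (8 to 44), 59 in N-dCKO against APPKO (14 to 85), 6 in N-dCKO against APLP2KO (1 to 43), 5 for APP loss (2 to 106), 160 for APLP2 loss (68 to 193), 98 for any difference among the 4 groups (39 to 169) and 0 for the interaction (0 to 11). Calls higher and lower were 36 and 114 in N-dCKO against WT (16 and 193 with median centring), 13 and 20 in APLP2KO against WT (10 and 25), and 59 and 101 for APLP2 loss (30 and 128); the cause was not tested. Low signal limits Kcnj6, Kctd16 and the dim probe sets of the other genes.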
